A study of Bos taurus with 27 samples.

Results

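A set of 540 genes stood at least 3-fold below its usual level in 2 cattle (Bos taurus) embryos out of 27. The set was chosen by its counts. Each member had a median CPM (counts divided by the library total and multiplied by 1000000) of at least 5 over the other 25 embryos. It was at least 3-fold below that median in both embryo 22 and embryo 25. Its slope on log2 size, fitted over all 27 embryos, was under 0.35 log2 units per doubling in either direction. Of 19994 Ensembl gene identifiers in the files, 8776 reached the median of 5 CPM, and 6.15% of those were members. The files pair no identifier with a gene name, and a RefSeq table of cattle genes (assembly ARS-UCD2.0) matched 0 of 19994. Members are therefore given by identifier, without known functions, and cell type markers could not be looked up.

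Each library came from 1 embryo taken at day 15 of pregnancy from a dam fed an omega-3 or an omega-6 diet, and embryos were classed as long or short. The omega-3 embryos were 6 long and 10 short ones, and the omega-6 embryos were 11 short ones. Embryos 22 and 25 are both short omega-6 embryos, at size numbers of 3.7 (letter m) and 1.4 (letter f); the unit of the size number is not stated. The letters are read here as male and female. Dams are not named, so p-values measure only the spread between these embryos.

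A ruminant embryo at this stage is a free-floating sac. Its outer layer, the trophectoderm, makes up most of the sac and lengthens from a sphere to a filament, while the inner layer of hypoblast lines it and a small embryonic disc carries the epiblast. RNA from a bulk embryo sample can mix all of these, so a gene used in 1 layer can fall in the total because that layer holds fewer cells or because each cell holds less RNA. Those cases cannot be told apart in bulk counts.

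Total counts ran from 17931620 to 29868584 per embryo (median 24349563), with 24905064 in embryo 22 and 26654396 in embryo 25. The number of genes detected after thinning every library to the lowest total was 13128 in embryo 22 and 13910 in embryo 25, against 13531 to 14309 in the other 25. The 10 most counted genes took 13.3% and 14.5% of counts in embryos 22 and 25 and 12.1% to 18.8% in the others. Embryo 07 is lettered f but held 38.0 CPM of ENSBTAG00000045544, inside the range of the 15 embryos lettered m (27.1 to 58.3 CPM) and far above the 0.0413 CPM that no other embryo lettered f (n = 11) exceeded.

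The levels in embryos 22 and 25 chose the members, so they are a description with no test. The median member stood at 21.5% of its own 25-embryo median in embryo 22 (middle 50% of members 15.9% to 25.9%) and at 23.7% in embryo 25 (17.9% to 28.7%). Together the members took 0.574% and 0.661% of all counts in these 2 embryos, against 1.80% to 3.35% (median 2.83%) in the other 25. Embryo 22 was at least 10-fold below the median in 35 members, embryo 25 in 20, and both in 11. No member was at 0 counts in either: counts ran from 3 to 20900 in embryo 22 and from 9 to 26962 in embryo 25. Embryo 22 was the lower of the pair in 324 members and embryo 25 in 216. In 539 of 540 members both embryos lay below every one of the other 25. The same held for 34.6% of all 8776 genes, so lying below the others was common in this pair well outside the set, and the rule fixes most of the members' count.

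**Figure D1:**
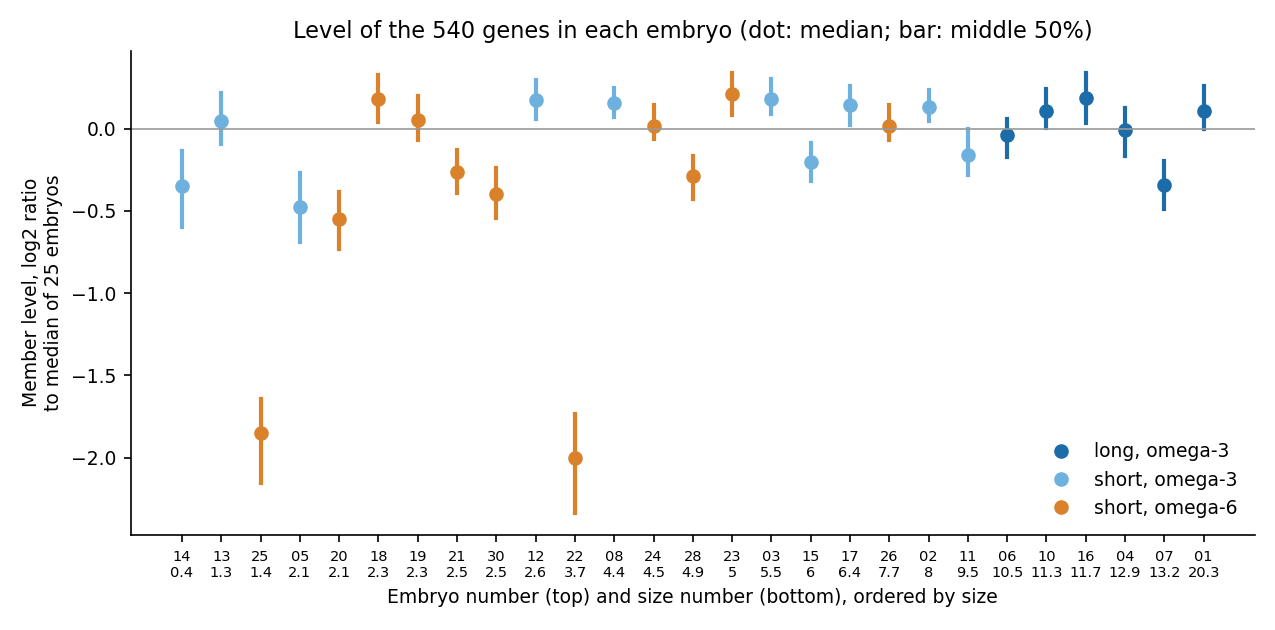
Level of the 540 genes in each of 27 embryos, as log2(CPM + 1) relative to the median of the 25 embryos other than 22 and 25; dots are medians over members and bars the middle 50% of members, with embryos ordered by size number and coloured by group. Embryos 22 and 25 sit at -2.0 and -1.85, and the other 25 lie between -0.55 and 0.21.

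The most counted member, ENSBTAG00000004555, measured 839 CPM in embryo 22 (20900 counts) and 1012 CPM in embryo 25 (26962 counts). Its lowest, median and highest values were 2046, 2926 and 3311 CPM in the 6 long omega-3 embryos, 1861, 3944 and 4609 in the 10 short omega-3 embryos and 2341, 3596 and 6196 in the 9 other short omega-6 embryos. The 2 embryos thus fell below all 3 ranges, 4.01-fold and 3.33-fold under the 25-embryo median of 3364 CPM. With TMM or RLE scaling the higher of the 2 embryos stood at 33.70% or 33.96% of the median, and the gene no longer met the 3-fold limit.

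ENSBTAG00000017258, the next most counted member, measured 284 CPM in embryo 22 and 323 CPM in embryo 25. The 3 ranges were 905 to 1453 CPM (median 1233) in long omega-3, 615 to 1349 (median 1165) in short omega-3 and 732 to 1389.9 (median 1048) in the other short omega-6 embryos. Embryos 22 and 25 again lay outside every range, and the lowest of the other 25 was the smallest embryo, 14.

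The 2 members lowest relative to their median were genes of modest level. ENSBTAG00000008619 had 12 counts in each of embryos 22 and 25, or 0.482 CPM (95% exact binomial interval 0.249 to 0.842) and 0.450 CPM (0.233 to 0.786); such intervals cover counting error only. Elsewhere it ran from 5.95 to 14.1 CPM (median 9.63) in long omega-3, from 5.05 to 12.4 (median 8.78) in short omega-3 and from 4.85 to 13.5 (median 10.3) in the other short omega-6 embryos. Both embryos were about 20-fold under the median, at 19.9-fold and 21.3-fold.

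ENSBTAG00000010018 had 5 counts in embryo 22 (0.201 CPM, 0.0652 to 0.469) and 20 in embryo 25 (0.750 CPM, 0.458 to 1.16). It measured 5.91 to 16.4 CPM (median 13.6) in long omega-3, 4.97 to 21.6 (median 14.4) in short omega-3 and 5.86 to 18.4 (median 12.4) in the other short omega-6 embryos. Embryos 05, 20 and 07 were the lowest of their groups in both of these members, and embryos 22 and 25 were far under them.

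**Figure D2:**
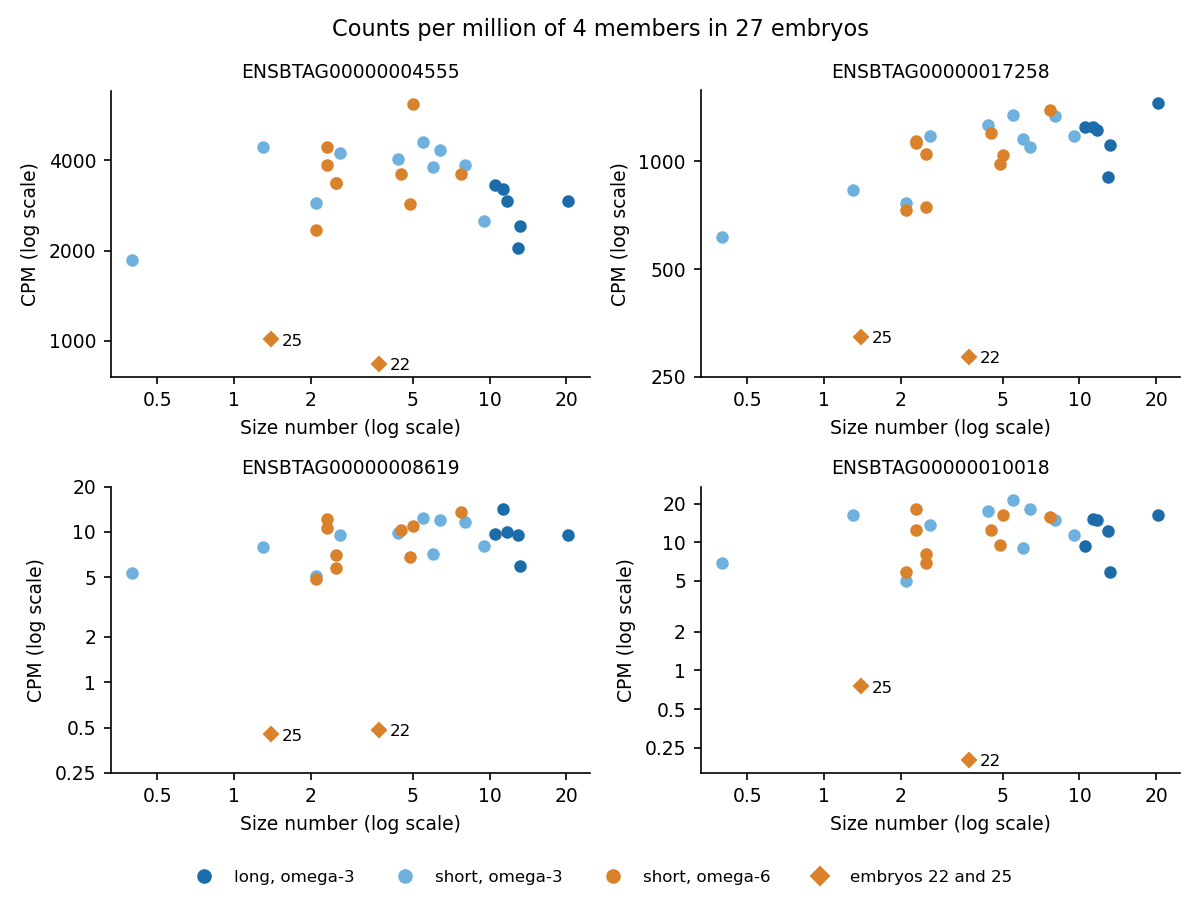
CPM (log axis) against size number (log axis) of the 2 members with the highest median (top) and the 2 with the deepest loss (bottom) in 27 embryos, coloured by group, with embryos 22 and 25 as diamonds. In all 4 panels both diamonds lie below all 25 circles; in ENSBTAG00000010018 they are at 0.201 and 0.750 CPM.

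The members reach across the range of levels but are sparse among the most counted genes. Their median level was 22.7 CPM (lowest 5.05, highest 3364), against 34.3 CPM over all 8776 genes. They made up 2.64% of the 1705 genes with a median of 100 CPM or more, 6.12% of the 4234 genes from 20 to 100 CPM, 8.73% of the 1627 genes from 10 to 20 CPM and 7.77% of the 1210 genes from 5 to 10 CPM. The median member of these classes stood at 19.4% to 22.02% of its own median in embryo 22 and at 21.96% to 24.5% in embryo 25. The same 3-fold limit caps the members of every class, so the likeness of these values is largely set by the rule.

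The set has no natural edge. The member nearest the 3-fold limit stood at 33.32% of its median in the higher of the 2 embryos and the nearest gene outside at 33.35%. At the other limits the nearest genes inside and outside had medians of 5.05 and 4.97 CPM and slopes of 0.348 and 0.352. A further 57 genes were low in both embryos but steeper than the slope limit, 56 of them rising with size. That slope includes embryos 22 and 25 themselves. Fitted over the other 25 embryos, it came under the limit in 25 of the 56. Over all 8776 genes 1134 (12.9%) were at least 3-fold below their median in embryo 22 and 767 (8.74%) in embryo 25. The 597 genes (6.80%) low in both were 52.6% of the first list and 77.8% of the second.

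Scaling bears on the depth of loss. By file totals the median of all 8776 genes lay at -0.36 (log2) in embryo 22 and -0.21 in embryo 25. Trimmed-mean scaling (TMM) brought these medians to 0.02 and -0.04 and the members' medians from -2.0 to -1.65 and from -1.85 to -1.71. Under that scaling 310 of the 540 members met the rule.

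None of the other 25 embryos was low over the set to this extent. At most 4 of 540 members (0.741%, in embryo 05) were at least 3-fold below the median in any of them, and 15 embryos had none. Over all 8776 genes the share was 0.558% in embryo 05 and ran from 0.0342% to 1.30% in these 25 embryos. Only 6 distinct members were that low in any of the 25. Among them, ENSBTAG00000011908 (described at the end) was that low in embryos 03, 05, 15, 16, 19, 20 and 28. Each of the 25 contributes to the median it is read against, which embryos 22 and 25 do not.

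Smaller, shared shifts ran through the 25 embryos. The rule set no limit on the level of any of these embryos by itself. It did use their median and, through the slope limit, their values. The median member was lower than its 25-embryo median in 11 embryos and higher in 14. The lowest were embryo 20 at -0.55 (531 of 540 members below their median), embryo 05 at -0.48 (519), embryo 30 at -0.39 (514), embryo 14 at -0.35 (463) and embryo 07 at -0.34 (501). Embryos 28, 21, 15 and 11 followed at -0.29, -0.27, -0.21 and -0.16. The highest were embryo 23 at 0.21, with 44 members below their median, and embryo 16 at 0.19, with 91. The lower embryos came from all 3 groups: 07 is long omega-3, 05, 14, 15 and 11 are short omega-3, and 20, 21, 28 and 30 are short omega-6. Embryo 20 had the lowest value of the 25 in 182 members, embryo 05 in 123, embryo 07 in 64, embryo 14 in 56 and embryo 30 in 42. These counts, and those of members below their median, were not made over all 8776 genes. Of all genes, 2.30%, 1.78%, 0.308%, 3.43% and 1.58% were at least 2-fold below their median in these embryos, in that order. Of members, 10%, 8.15%, 1.48%, 6.67% and 1.30% were. In embryo 30 the members' share was thus under that of all genes. The median share over the 25 embryos was 0.467% of all genes and 0.185% of members.

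By group, the embryos' median member lay at 0.00 ± 0.19 (log2, SD, n = 6) in long omega-3, -0.04 ± 0.24 (n = 10) in short omega-3 and -0.11 ± 0.27 (n = 9) in the other short omega-6 embryos. The spread within each group exceeded the differences between groups. Embryos 22 and 25 were far outside all 3.

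The members moved together among these 25 embryos. Over 145530 pairs of members, Pearson's r of log2(CPM + 1) had a median of 0.635 (middle 50% 0.477 to 0.751), and 97.9% of pairs were positive. Over all 38504700 pairs of the 8776 genes the median was 0.0366 (middle 50% -0.244 to 0.317), with 53.4% positive. These are descriptions without a p, since genes within an embryo share its library. The first principal component of the members held 61.5% of their variance over the 25 embryos, against 39.9% for that of all 8776 genes. Members also varied more than the average gene, with a median SD of 0.31 log2 units against 0.20 over the 8776 genes.

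The co-variation was present within each diet. The median r was 0.60 in the 16 omega-3 embryos and 0.747 in the 9 other omega-6 embryos, beside 0.0390 and 0.0427 over all pairs of genes. Leaving out each of the 25 embryos in turn gave 0.598 (without embryo 20) to 0.648 (without embryo 04). Without both embryo 05 and embryo 20 it was 0.568. A straight line on log2 size taken out of each gene left 0.660, and thinning every library to the lowest total gave 0.624.

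**Figure D3:**
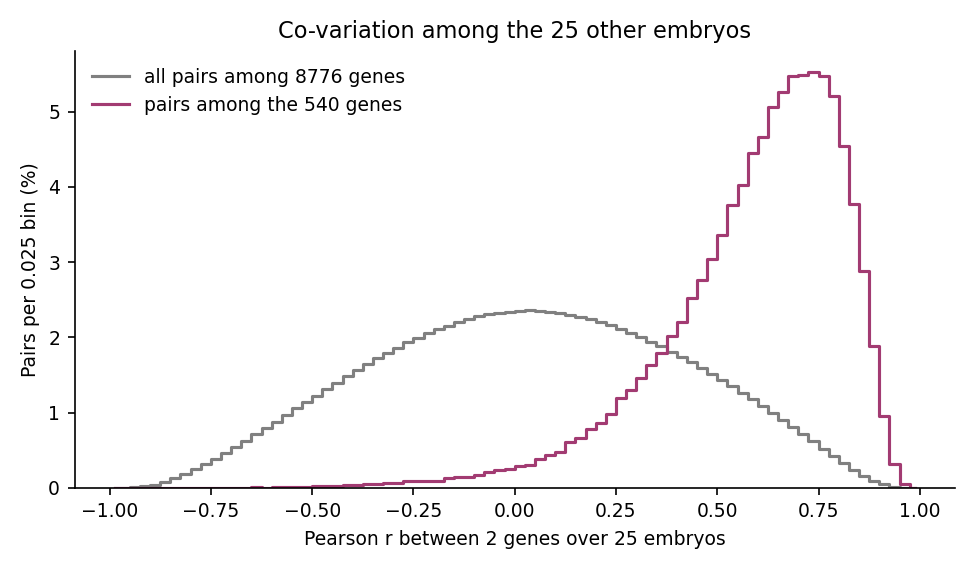
Distribution of Pearson's r between 2 genes over the 25 embryos other than 22 and 25, for all pairs among the 540 members and all pairs among the 8776 genes with a median of at least 5 CPM. Member pairs centre at 0.635 and all pairs at 0.0366.

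The tightest member, ENSBTAG00000010803, had a median r of 0.788 with the other members. Its lowest, median and highest values were 12.5, 20.2 and 25.6 CPM in long omega-3, 10.1, 20.6 and 26.1 in short omega-3 and 11.04, 19.1 and 26.3 in the other short omega-6 embryos, with 2.05 CPM in embryo 22 and 2.10 in embryo 25. The lowest of its groups were embryos 07, 05 and 20, the same embryos as for the deepest losses above.

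The co-variation did not extend to every member. In 477 members (88.3%) the median r with the others exceeded 0.5, and in 3 it was below 0. ENSBTAG00000022227 was the lowest at -0.265. It measured 1.69 CPM in embryo 22 and 1.61 in embryo 25, and 5.09 to 10.3 CPM (median 6.31) in long omega-3, 4.54 to 11.6 (median 6.40) in short omega-3 and 2.83 to 7.12 (median 5.04) in the other short omega-6 embryos. It was thus low in the same 2 embryos but did not follow the rest of the set elsewhere, and embryo 11, low for most members, was its highest short omega-3 embryo.

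Genes outside the set were then ordered by their correlation with the mean member profile over the 25 embryos. The profile averages genes chosen for being low in embryos 22 and 25, and the non-members are what that choice left, including the 57 steeper genes low in both. The levels of the classes in these 2 embryos are therefore a description and support nothing. The 194 non-members with r of 0.8 or more were all below their median in both embryos, at a median of -1.41 (log2) in embryo 22 and -1.19 in embryo 25. The 1109 with r from 0.5 to 0.8 lay at -1.12 and -0.98, and 99.2% were below in both. Genes with r from 0 to 0.5 (2655) lay at -0.61 and -0.44, those from -0.5 to 0 (3122) at -0.02 and 0.13, and the 1156 below -0.5 at 0.62 and 0.53.

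**Figure D4:**
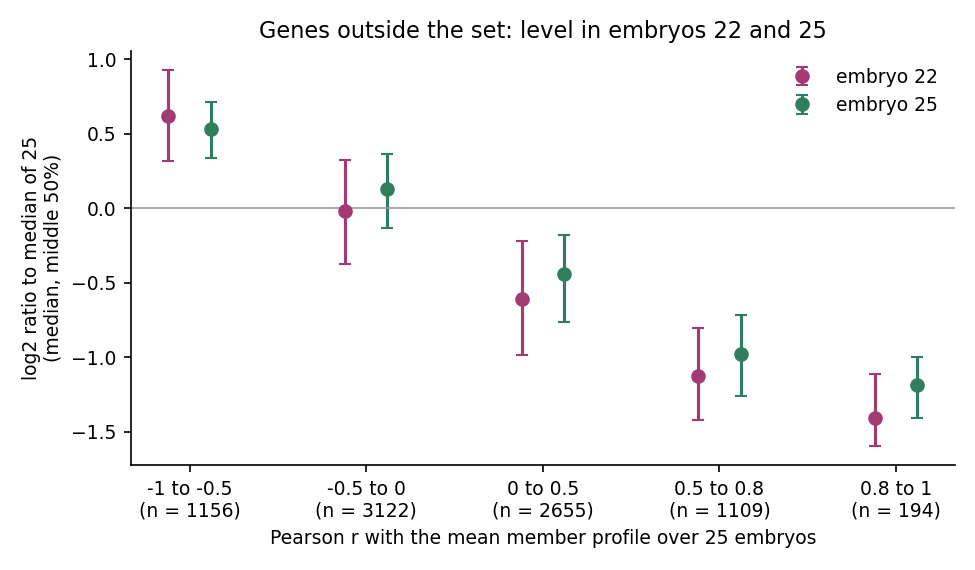
Level in embryos 22 and 25 of the 8236 genes outside the set, as log2 ratio to the median of the other 25 embryos, by their Pearson r with the mean member profile over those 25; points are medians and bars the middle 50% of genes. Both embryos fall from above 0.5 in the leftmost class to -1.41 and -1.19 in the rightmost.

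Measures of the libraries moved with the members' level in part. Over the 25 embryos the embryos' median member had r = 0.337 with the total count (rho = 0.278), and 0.0900 without the 2 embryos farthest in total. Against the number of genes detected at equal depth r was -0.536 (rho = -0.278), and -0.356 without the 2 farthest. Embryo 22 had 13128 genes detected and embryo 25 had 13910, against 13531 to 14309 in the other 25. By file totals embryo 22 had the lower member level of the pair. With TMM scaling embryo 25 had the lower, at -1.71 against -1.65. The part of these measures in the result was not tested, and no p is given for a score over the members.

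The members' shared level was only loosely tied to size. The rule leaves out genes steep on size, so this loose tie is partly set by it. The embryos' median member had r = 0.351 with log2 size over the 25 embryos (rho = 0.252), 0.223 without the 2 embryos farthest in size, 0.338 within omega-3 (n = 16) and 0.365 within the other omega-6 embryos (n = 9). The first 2 principal components of all 8776 genes held 39.9% and 13.1% of the variance. The first had an absolute r of 0.923 with log2 size and 0.556 with the members' own leading component. The second had 0.0823 and 0.806. Within the members, size was closer to their second component (12.1% of variance, absolute r of 0.789) than to their first (0.407).

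Since the rule bounds the slope on size, slopes are given without a test. Over the 25 embryos 431 of 540 members (79.8%) sloped upward, against 40.3% of the 8776 genes, and the median slope was 0.07 log2 units per doubling of the size number (middle 50% 0.01 to 0.13) against -0.02. Slopes lay within 0.1 of zero in 339 members (62.8%, against 67.9% of the 8776 genes). They were at least 0.1 upward in 191 (35.4%, against 13.9%) and at least 0.1 downward in 10. Slopes from -0.125 to -0.1 were found in 0.741% of members against 6.30% of the 8776 genes. From -0.15 to -0.125 the shares were 0.185% and 4.42%. With embryos 22 and 25 in the fit the median slope was 0.15. Spearman's rho with size exceeded 0.5 in 99 members (18.3%, against 13.4% of the 8776 genes) and was under -0.5 in 4 (0.741%, against 28.2%).

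ENSBTAG00000000087 had the steepest upward slope, 0.28 per doubling (rho = 0.842). It measured 162 to 477 CPM (median 415) in short omega-3, 227 to 517 (median 346) in the other short omega-6 and 405 to 576 (median 449) in long omega-3 embryos, beside 106 and 101 CPM in embryos 22 and 25. ENSBTAG00000017266 rose by 0.28 as well (rho = 0.788), from 71.5 to 180 CPM (median 121) in short omega-3 and 70.6 to 156 (median 114) in the other short omega-6 to 142 to 213 (median 174) in long embryos. Long and short embryos overlapped in both genes.

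ENSBTAG00000001545 had the steepest downward slope, -0.29 (rho = -0.671), with 331 to 684 CPM (median 587) in long omega-3, 508 to 1764 (median 945) in short omega-3 and 715 to 1426 (median 1125) in the other short omega-6 embryos. Embryos 22 and 25 held 163 and 296 CPM. Its slope was -0.46 without the smallest and the largest embryo (14 and 01). ENSBTAG00000003440 fell by 0.19 (rho = -0.750), from medians of 6.78 and 6.77 CPM in short omega-3 and the other short omega-6 to 4.59 CPM in long embryos. Its median r with the members was -0.105, so it was also among the 3 that did not follow the set.

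**Figure D5:**
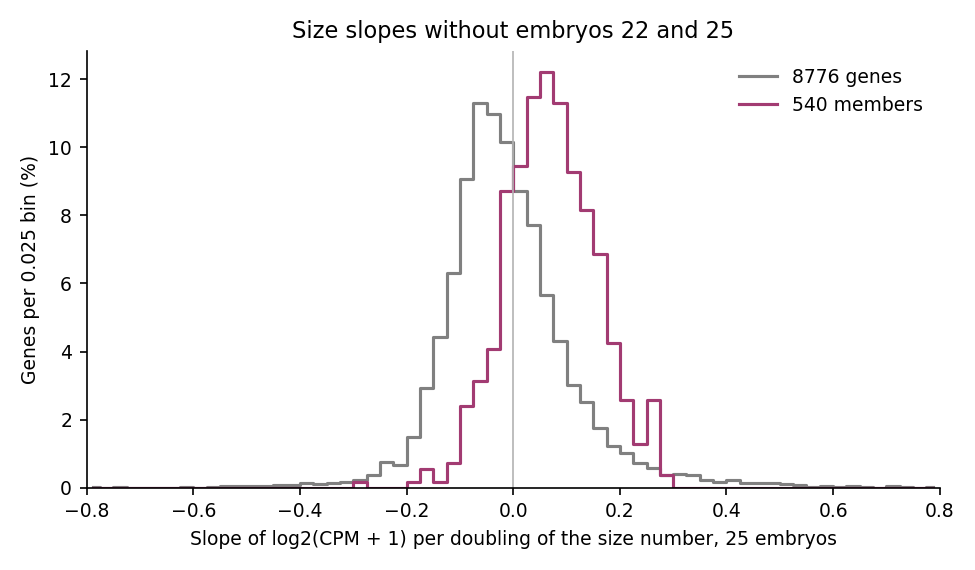
Slopes of log2(CPM + 1) per doubling of the size number over the 25 embryos other than 22 and 25, for the 540 members and all 8776 genes. The members' median is 0.07 and that of all genes -0.02; the member rule bounds the slope over 27 embryos, so the narrower member curve is partly set by it.

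Whether maternal diet moved the members was tested in the 25 embryos, leaving out the pair whose low levels chose the set. These 25 still entered the rule, through the median level and through the slope limit on size. All long embryos were omega-3, so that limit may bear on the diet contrast. All 540 passed the filter on low counts. In a model of diet, size and sex, the quasi-likelihood test of edgeR called 0 of 540 members and 0 of 11869 genes at an adjusted p below 0.05 (0.0% called in either direction). At an unadjusted p below 0.05 there were 9 members (1.67%), all higher in omega-3, beside 2.38% of all genes higher and 2.06% lower. DESeq2 called 0 members and 1 gene in all, and limma-voom 0 of either, with 9 and 20 members at an unadjusted p below 0.05, all higher in omega-3. Those were 1.67% and 3.70% of members, beside 2.60% of all genes higher in omega-3 with DESeq2 and 2.81% with limma-voom. The median difference was 0.03 log2 units toward omega-3 with a median SE of 0.12, and 66.1% of members pointed that way against 49.3% of all genes. Members are correlated, so their common sign is not 540 separate observations. The interval of 1.96 SE either side lay within 0.5 log2 units of zero for 516 members and within 1 for all 540. Such intervals were not counted over all genes tested, so these counts describe precision and not a trait of the set.

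By the smallest p, ENSBTAG00000003375 was 0.25 ± 0.09 (SE) higher in omega-3 and did not pass (edgeR adjusted p = 0.995). Its ranges overlapped: long omega-3 embryos held 11.3 to 17.4 CPM (median 14.2), short omega-3 embryos 11.2 to 16.6 (median 13.1) and the other short omega-6 embryos 8.24 to 13.6 (median 11.4). ENSBTAG00000013562 differed by 0.25 ± 0.10 (adjusted p = 0.995), and its difference was 0.16 without the smallest embryo. Toward omega-6 the smallest p values were those of ENSBTAG00000033166 (-0.21 ± 0.12) and ENSBTAG00000010062 (-0.24 ± 0.15), both with an edgeR adjusted p of 0.995.

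Among short embryos, the class both diets share, edgeR likewise called 0 members and 0 genes (0.0%). There were 4 members at an unadjusted p below 0.05, all higher in omega-3 (0.741%), beside 1.06% of all genes in each direction. DESeq2 gave 4 and limma-voom, with weights for single embryos, 114, all higher in omega-3, of which none passed adjustment. The 114 were 21.1% of members, and in the same limma-voom fit 6.21% of all genes were higher and 6.25% lower at that p. The median difference was 0.08 log2 units toward omega-3 with a median SE of 0.14, and it was 0.17 with limma-voom. The interval of 1.96 SE lay within 0.5 for 452 members and within 1 for 539, again not counted over all genes tested.

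Between embryos lettered m and f, 2 of 540 members were called by edgeR, both higher in f (0.370%), beside 0.674% of all genes higher in f and 0.169% higher in m (0.843% in all). At an unadjusted p below 0.05 there were 5 members higher in f and 3 higher in m, beside 4.31% and 3.55% of all genes. Both were named after their values were seen. ENSBTAG00000018697 ran from 13.5 to 25.95 CPM (median 20.5) in 14 m embryos and from 18.4 to 32.0 (median 28.3) in 11 f embryos, overlapping ranges with a log2 difference of -0.42 ± 0.09 (SE, edgeR adjusted p = 0.0116). ENSBTAG00000009598 ran from 2.93 to 5.33 CPM (median 4.37) in m and from 3.38 to 7.85 (median 5.93) in f embryos (-0.45 ± 0.11, adjusted p = 0.035). Embryo 07, lettered f, was the lowest f embryo in both, and without it the differences were -0.49 and -0.52 (adjusted p = 0.000115 and 0.00196) and 3 members were called (0.556%), beside 97 genes lower and 42 higher in m of 11963 tested. The call of the second ended without the smallest embryo (adjusted p = 0.0811). With embryos 22 and 25 in the fit neither passed (adjusted p = 0.541 and 0.597).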

How the data were processed

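Each deposited file holds the authors' raw read counts for the same 19994 Ensembl cattle gene identifiers. Per the labels' protocols, libraries were stranded and polyadenylated-RNA based and read as single reads. STAR and featureCounts are named without versions in the submitters' processing notes; no source used here gives the genome build, annotation, strand setting or treatment of shared reads, so members of multicopy families are uncertain. The lowest chi-square per degree of freedom over 351 pairs of libraries was 16.1, so none was a copy of another. Members and lists were chosen with earlier results of these data known. The rule also leaves out 1 identifier by name, which would not have met it.

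Tests used edgeR 4.0.16 in R 4.3.3 (filterByExpr, TMM, glmQLFit, glmQLFTest, two-sided, Benjamini-Hochberg over 11869 genes) on the 25 embryos, with diet, log2 size and sex letter, or group and sex letter. SE is the log2 difference over the square root of F. DESeq2 1.42.0 and limma 3.58.1 were alternatives. On simulated counts of independent genes, 83.8% of log2 changes of 0.5 were recovered for diet at equal size (11818 genes), 82.4% for diet among short embryos (11806 genes) and 87.3% for sex letter (11814 genes). The changed genes were drawn from all those with a mean of at least 5 CPM, and no effect of size was added. Members co-vary and vary more than the average gene, so these rates are not rates for the members. Identifiers were printed by a fixed rule: the 2 members with the highest median, the deepest loss, the steepest slope each way and the smallest diet p each way, and the highest and lowest co-variation.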

Additional observations from a re-analysis of the deposited data

How the results depend on the processing

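The number of genes meeting the rule depended on scaling and limits: it was 310 with TMM scaling and 306 with RLE size factors, 1411 at a limit of 2-fold and 253 at a limit of 4-fold below the median, and 1066 when embryo 22 alone had to be low. It was between 446 and 674 with another minimum level, slope limit or pseudocount, embryo 25 alone, or, as a choice made after seeing the data, all libraries thinned. The median r between members was 0.635 and ranged from 0.598 to 0.648 over the fits without 1 embryo each. It was 0.681 in residuals after diet, size and sex letter, 0.747 in the other omega-6 embryos and 0.568 without embryos 05 and 20 (chosen after seeing the data). The highest share of members low in any of the 25 embryos was 10% at the 2-fold limit in place of 0.741% at the 3-fold limit. That 10% was in embryo 20, where 2.30% of all 8776 genes were low at the 2-fold limit. The highest such share of all genes was 3.43%, in embryo 14. Members called for sex letter numbered 1 without the filter on low counts, beside 76 genes lower and 21 higher in m of 16802 tested. They numbered 1 without the smallest embryo (beside 71 lower and 18 higher of 11831) and 0 with embryos 22 and 25 (beside 37 and 12 of 11919). The causes were not tested. Diet called 0 members under every alternative run. No paired analysis was possible because dams are not named. Depth limits the lowest values: 40 members had under 30 counts in embryo 22 and 31 in embryo 25.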

Other observations

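One member stood apart in the other embryos. ENSBTAG00000011908, named after its values were seen, was the only member in which another embryo lay below 22 or 25. It measured 3.45 CPM in embryo 22 and 0.338 CPM in embryo 25. Among the other 25 embryos its values fell into 3 bands with gaps between them. There were 8 embryos from 0.505 to 4.40 CPM, 13 from 9.77 to 14.05 CPM and 4 from 19.5 to 26.6 CPM. The low band held 5 omega-3 and 3 omega-6 embryos, the middle band 8 and 5, and the high band 3 and 1. By letter, the low band held 2 m and 6 f embryos, the middle band 9 and 4, and the high band 3 and 1. Its SD over the 25 embryos was 1.22 log2 units, the highest of the 540, where the median member had 0.31, and its median r with the other members was 0.261. The bands were drawn after seeing the values and were not tested.

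Members were listed next to each other in the files in 27 pairs of rows, with no run longer than 2. These pairs held 54 members (10%), while 6.02% of the 8776 genes had a member in a neighbouring row. What orders the rows is not stated. The median r within these pairs was 0.639 (0.109 to 0.977), beside 0.635 over all pairs of members.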
